A study of Mus musculus with 10 samples.

Results

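The Rab GTPases are a large family of small membrane-bound GTPases in mammals, and 53 of the 35275 genes in the deposited expression table belonged to it here. A gene was taken as a member when the table listed it as protein-coding with a symbol made of Rab and a number, with or without a closing letter and digit. Rab11a, Rab11b, Rab25, Rab8a and Rab8b, which include the known partners of the myosin Vb (MYO5B) motor, were left out, and the choice used no expression value. Messenger RNA was sequenced from jejunal epithelial cells of 10 adult C57BL/6 mice, labelled as males, with a tamoxifen-inducible Cre recombinase and floxed Myo5b alleles (VillinCreERT2;MYO5Bflox/flox), all collected on day 4. The villin promoter limits Cre to the gut epithelium, so other cells in a preparation kept an intact gene. Corn oil alone was given to the 3 control mice, which kept MYO5B, so the other groups differed from them in tamoxifen itself as well. The 4 MYO5B-knockout mice received a single dose of 2 mg tamoxifen and a vehicle of BSA in PBS, and 3 LPA-treated mice received the same tamoxifen and lysophosphatidic acid (LPA) at 3 mg/kg. Vehicle and LPA were injected intraperitoneally over 4 days. Control mice, given corn oil alone, lacked these injections, so the other groups differed from them in this as well. The labels of LPA-treated mouse 1 were in conflict, because 1 line named the vehicle and the title named LPA, and the title was followed. LPA is a lysophospholipid that signals through receptors on the cell surface.

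Rab proteins act as switches on membranes. Exchange factors load them with GTP, GTPase-activating proteins return them to the GDP-bound form, and in the GTP form they recruit effectors such as tethers, sorting complexes and motors. A prenyl group added by a dedicated transferase anchors them in the membrane, and GDP dissociation inhibitors take them off again. Each compartment carries its own members, with Rab1 and Rab2 between the endoplasmic reticulum and the Golgi, Rab5 on early endosomes, Rab4 on recycling endosomes, Rab7 on late endosomes and Rab3 and Rab27 on secretory granules. In the enterocyte these routes deliver hydrolases and transporters to the brush border.

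The comparisons ask how the expression of these genes differed when MYO5B was lost, and whether LPA altered it in the knockout. Between 10949420 and 24470409 reads per library lay on genes. Myo5b, the targeted gene, measured 16.5, 32.0 and 26.1 FPKM in the 3 controls and 10.3 to 13.6 FPKM in the 7 tamoxifen-treated mice, so controls and knockouts did not overlap. FPKM scale the fragments of a gene by its length and by the size of the library, which makes levels comparable between genes. Fewer genes were detected in control mouse 2 (12242) and MYO5B-knockout mouse 3 (12601), against 17309 to 18267 in the other 8, and mitochondrial genes took 17.4% and 18.0% of their reads, against 1.98% to 3.50%. These libraries are called the few-gene libraries here. Against their label as males, MYO5B-knockout mouse 3 and LPA-treated mouse 1 gave Xist reads and none on 4 genes of the Y chromosome. Where the value of a difference without some of these libraries was taken, it stands beside it. The other differences, and the medians of compartments, lists and markers, are given with these libraries included.

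Upstream sequence is shown for 3 members on which the results below turn: Rab31 and Rab19, which both differed between LPA-treated and control mice, and Rab24, which had the smallest p under LPA. RefSeq windows of the GRCm38.p6 build, from 250 bases before the start, matched 42 of the 53 members by symbol. Rab30, which showed the largest difference of the family, had no matching window and is not shown. Only bases before both the RefSeq start and the gene start of the deposited table are printed, 5′ to 3′ on the strand of the gene. Capitals mark matches to 6 motifs, each searched on both strands: the TATAAA box, the CCAAT box, the GGGCGG box, the CACGTG palindrome, the TGACGTCA palindrome and the TGANTCA element. The windows are chr17:65772753-65773002 on the minus strand for Rab31, chr6:39381103-39381174 on the plus strand for Rab19 and chr13:55321981-55322230 on the minus strand for Rab24.
Rab31: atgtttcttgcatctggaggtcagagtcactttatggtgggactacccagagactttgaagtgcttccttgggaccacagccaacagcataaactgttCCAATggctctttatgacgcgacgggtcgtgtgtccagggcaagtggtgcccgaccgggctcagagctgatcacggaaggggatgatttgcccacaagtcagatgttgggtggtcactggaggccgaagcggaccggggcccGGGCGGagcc
Rab19: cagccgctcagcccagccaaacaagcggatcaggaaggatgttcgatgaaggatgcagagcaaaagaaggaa
Rab24: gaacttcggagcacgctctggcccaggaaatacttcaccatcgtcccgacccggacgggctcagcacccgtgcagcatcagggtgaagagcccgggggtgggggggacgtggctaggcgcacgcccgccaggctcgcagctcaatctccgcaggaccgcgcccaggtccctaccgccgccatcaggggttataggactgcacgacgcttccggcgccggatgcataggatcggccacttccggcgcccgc
The Rab31 window held 1 CCAAT and 1 GGGCGG match, the latter 10 bases from its end, and the matches did not overlap. Neither the 72 bases of Rab19 nor the 250 bases of Rab24 held a match. The window of Rab24 was the richest in G and C, at 68.8%, against 57.6% for Rab31, 52.8% for Rab19 and a median of 52.4% over all windows. Over the full 250 bases, GGGCGG was present for 33 of the 42 matched members and 35.4% of all genes in RefSeq, and TATAAA for 4 of the 42 and 14.3% of all genes. CCAAT was present for 20 of the 42 members and 37.5% of all genes, CACGTG for 5 and 6.86%, TGACGTCA for 1 and 1.77%, and TGANTCA for 2 and 7.82%. A match describes these letters and says nothing of a bound factor.

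The members covered a wide range of levels. Over the 10 libraries, 21 members averaged over 10 FPKM, 14 from 1 to 10 FPKM and 8 less than that while still reaching the mean of 0.1 FPKM needed for testing. The other 10 (Rab3b, Rab9b, Rab26, Rab36, Rab38, Rab39, Rab39b, Rab40b, Rab42 and Rab44) held at most 11 reads and 0.280 FPKM in any library and were not tested. A read was present in every library for 37 of the 53 members. The 5 members with the highest mean, Rab1, Rab5c, Rab30, Rab2a and Rab1b, held 51.8% of the FPKM summed over the family.

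**Figure D1:**
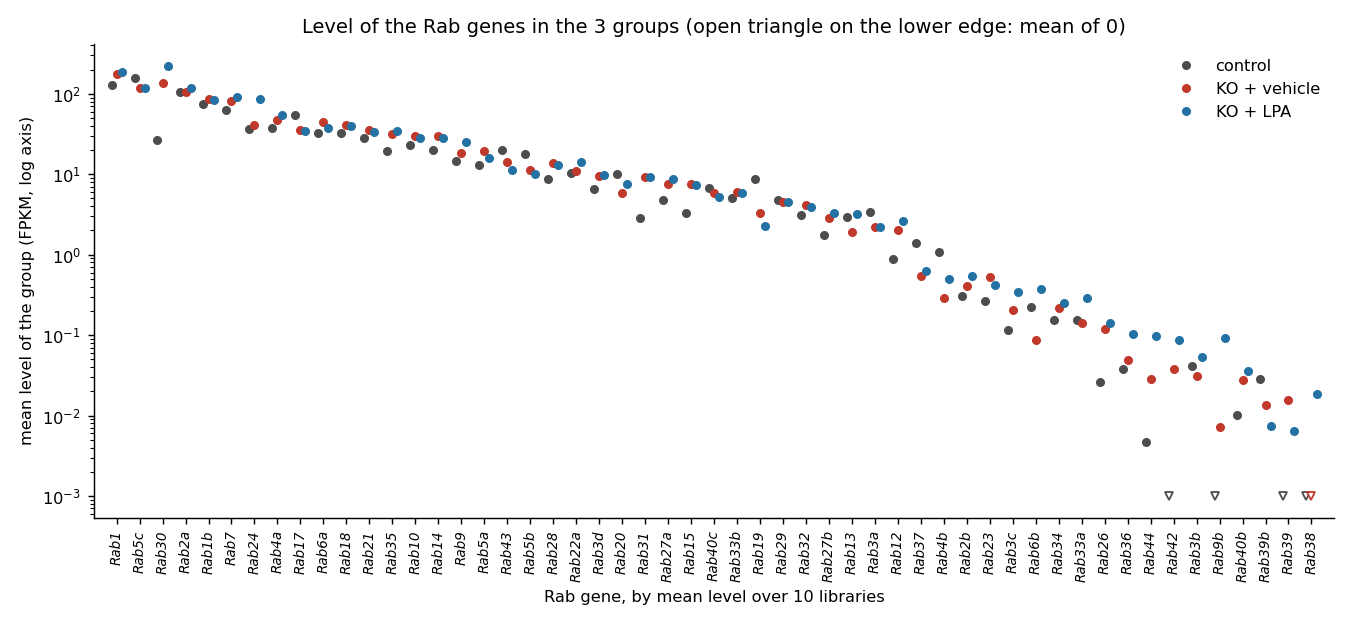
Mean level of the 53 Rab genes in control (grey), vehicle-treated MYO5B-knockout (red) and LPA-treated MYO5B-knockout mice (blue), in FPKM on a log axis, ordered by the mean over the 10 libraries. The 21 most abundant members average over 10 FPKM over the 10 libraries, though the control mean of Rab28 lies below that. The 3 group means of most members lie close together, while Rab30 and Rab31 stand lower and Rab19 higher in the control group.

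Rab2a, which acts between the endoplasmic reticulum and the Golgi, varied least of these 5 members. Values by mouse are given here in the order of controls 2, 4 and 5, vehicle-treated knockouts 3, 5, 6 and 7, and LPA-treated knockouts 1, 4 and 5. Rab2a measured 99.9, 108 and 109 FPKM in controls, 102, 114, 100.3 and 103 FPKM in vehicle-treated knockouts and 106, 123 and 123 FPKM under LPA. The difference between MYO5B-knockout and control mice was -0.01 on the log2 scale, with a 95% confidence interval from -0.47 to 0.45. The values of all 10 libraries lay within a narrow band, and the groups overlapped.

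Rab1, which drives transport from the endoplasmic reticulum to the Golgi, measured 29.0, 179 and 174 FPKM in controls, 76.1, 211, 205 and 207 FPKM in vehicle-treated knockouts and 189, 241 and 137 FPKM under LPA. Its close relative Rab1b measured 15.2, 102 and 109 FPKM in controls, 12.3, 126, 98.4 and 105 FPKM in vehicle-treated knockouts and 137, 85.4 and 29.4 FPKM under LPA. In both genes the few-gene libraries gave the lowest values, and no difference between groups passed the test. Between MYO5B-knockout and control mice Rab1 differed by 0.74 with all libraries and by -0.13 without control mouse 2, and Rab1b by 0.20 and -0.73. Without both few-gene libraries the values were 0.24 and 0.052.

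Rab5c, an early endosome Rab, measured 65.7, 202 and 210 FPKM in controls, 46.3, 122, 137 and 173 FPKM in vehicle-treated knockouts and 130, 133 and 91.5 FPKM under LPA. It too was lowest in the few-gene libraries of its groups, and its difference between MYO5B-knockout and control mice was -0.39 with all libraries, 0.017 without MYO5B-knockout mouse 3 and -0.94 without control mouse 2. Rab5a and Rab5b, its paralogs, were less abundant. Rab5a stood at 0.884 and 0.349 FPKM in the few-gene libraries of control and MYO5B-knockout mice, whereas the other libraries of these groups held it between 16.4 and 30.8 FPKM.

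In both few-gene libraries, 6 of the 43 tested members (Rab1b, Rab6a, Rab5a, Rab43, Rab15 and Rab37) lay over 2 log2 units below the median of the other libraries of their group, as did 10.9% of all genes tested. Another 6 (Rab17, Rab20, Rab40c, Rab19, Rab29 and Rab3a) lay above that median in both, as did 14.7% of all genes tested. Rab17, an epithelial Rab of apical recycling and transcytosis, was the clearest of these, at 87.1 FPKM in control mouse 2 and 76.6 FPKM in MYO5B-knockout mouse 3 against 18.5 to 44.0 FPKM in the other libraries of these groups. LPA-treated mouse 5 lay between these libraries and the others for some of the same genes, with Rab5a at 4.11 FPKM against 25.2 and 18.5 FPKM in LPA-treated mice 1 and 4.

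**Figure D2:**
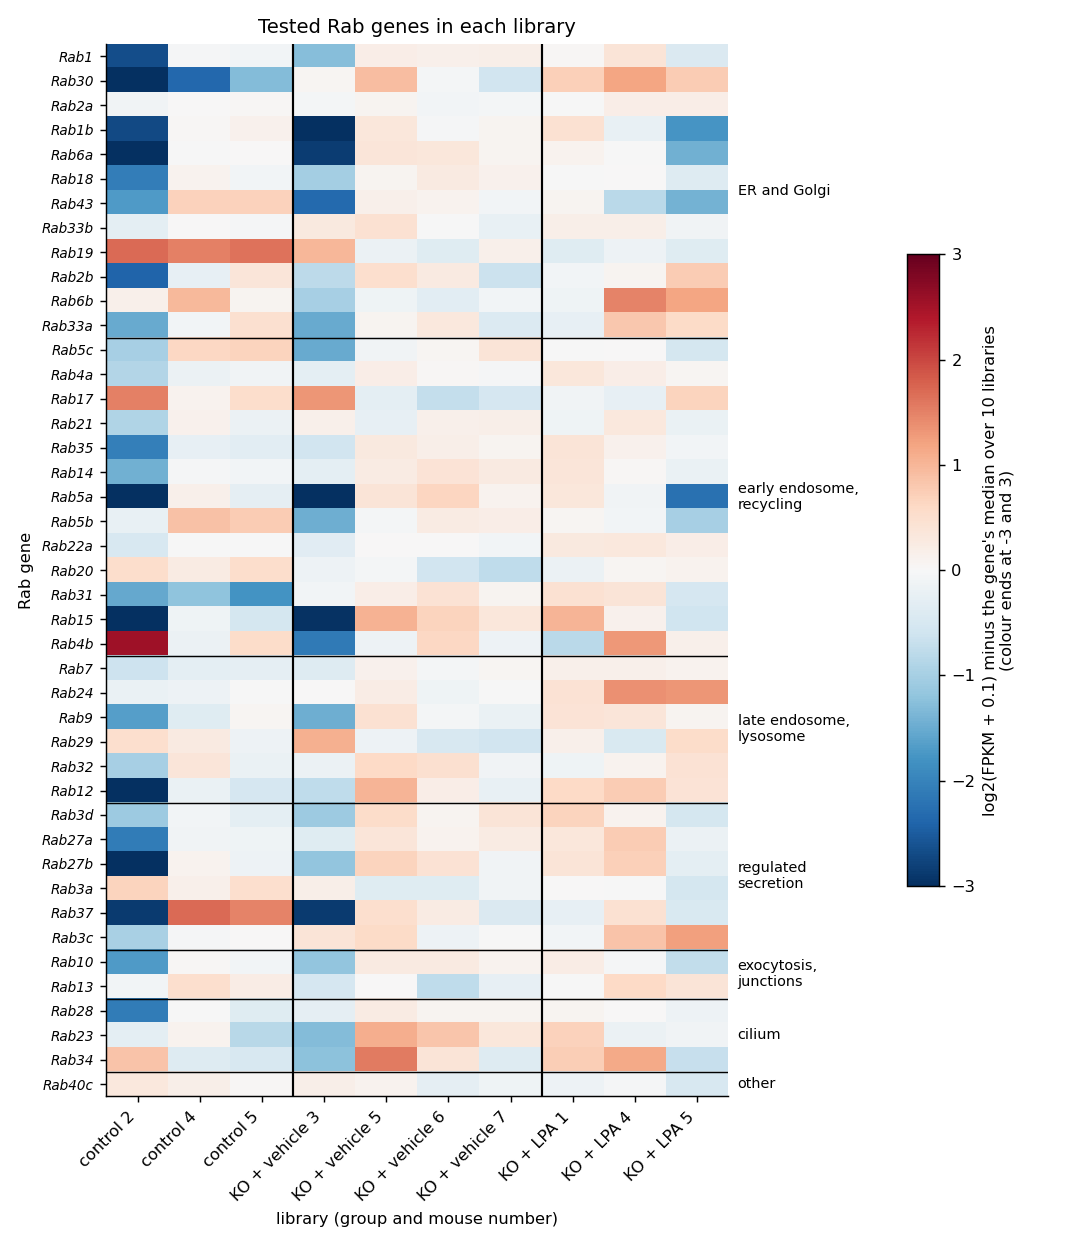
Level of the 43 tested Rab genes in each of the 10 libraries, as log2(FPKM + 0.1) minus the median of the gene over the libraries, grouped by the compartment in which the protein acts. Control mouse 2 and MYO5B-knockout mouse 3 show dark blue cells for the same members, among them Rab1b, Rab6a, Rab5a and Rab15, while Rab30 and Rab31 are blue and Rab19 is red in all 3 control libraries.

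Between vehicle-treated MYO5B-knockout and control mice, 2 of the 43 tested members passed an adjusted p of 0.05 (limma on log2(FPKM + 0.1), Benjamini-Hochberg over 15729 genes), and both, Rab30 and Rab31, were higher in knockout mice. Over all genes tested, 2.01% passed and 1.13% passed with a higher level. The share of members called, 4.65%, rests on 2 genes and was not tested against that background. The median log2 fold change of the 43 members was 0.34, against 0.29 for all genes tested, and 28 of the 43 were above 0, as were 63.4% of all genes. After the libraries were scaled by their median ratio, the median of all genes was 0.04 and that of the members 0.05. Without control mouse 2 it was -0.0038 for all genes and -0.10 for the members. Leaving out both few-gene libraries gave 0.21 for all genes and 0.14 for the members. Rab30 and Rab31 passed under median-ratio scaling too, at 2.33 (limma's adjusted p = 0.0330) and 1.39 (limma's adjusted p = 0.0448).

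Rab31 had the smallest p of the family in this comparison. It acts between the trans-Golgi network and endosomes and is a paralog of Rab22a (ENSMUSG00000056515, chromosome 17, 65651726 to 65772752, minus strand, in GRCm38). It measured 2.76, 3.48 and 2.28 FPKM in controls, 7.70, 9.38, 11.2 and 8.74 FPKM in vehicle-treated knockouts and 11.2, 10.8 and 5.72 FPKM under LPA. Every tamoxifen-treated mouse lay above every control mouse. The printed window before its start is given above, and these levels rested on 106 to 954 reads per library.

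Rab31 rose by 1.68 log2 units in MYO5B-knockout over control mice (SE 0.34, 95% CI 0.92 to 2.43, limma's adjusted p = 0.0379). The difference was 1.75 with the few-gene libraries left out (limma's adjusted p = 0.0375) and 1.76 with those that held Xist left out (limma's adjusted p = 0.0487). In a fit of these 2 groups alone it missed the threshold (limma's adjusted p = 0.0872). The call did not survive the loss of most single libraries. It held without MYO5B-knockout mouse 3 or LPA-treated mouse 5, and the adjusted p lay between 0.0579 and 0.159 without control mouse 2, 4 or 5, MYO5B-knockout mouse 5, 6 or 7, or LPA-treated mouse 1 or 4, with differences from 1.53 to 1.83.

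Rab30 showed the largest difference of the family. It is a Rab of the Golgi (ENSMUSG00000030643, chromosome 7, 92741603 to 92837117, plus strand). It measured 7.77, 23.6 and 49.2 FPKM in controls, 126, 228, 115 and 81.4 FPKM in vehicle-treated knockouts and 197, 273 and 204 FPKM under LPA. The lowest knockout mouse was above the highest control mouse, and the control mice differed among themselves by more, in fold terms, than the mice of either other group. Rab30 held 175 to 1755 reads in control libraries and 2822 to 9828 in the tamoxifen-treated ones.

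Rab30 rose by 2.62 log2 units in MYO5B-knockout over control mice (SE 0.55, 95% CI 1.39 to 3.84, limma's adjusted p = 0.0438). Without the few-gene libraries it was 1.92 and missed the threshold (limma's adjusted p = 0.0615), and leaving out those that held Xist the value was 2.62 (limma's adjusted p = 0.0829). It also missed the threshold in a fit of these 2 groups alone (limma's adjusted p = 0.127) and with no filter on low values (limma's adjusted p = 0.0641). Of the single libraries, the call held only without control mouse 5, with a difference of 3.23. Leaving out any of the other 9 gave differences from 1.91 to 2.83 and adjusted p-values between 0.0568 and 0.137.

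Rab19 and Rab20 stood on the other side. Rab19, a Golgi-associated Rab (ENSMUSG00000029923, chromosome 6, 39381175 to 39390380, plus strand), measured 9.31, 8.12 and 8.74 FPKM in controls, 5.62, 2.47, 2.14 and 3.10 FPKM in vehicle-treated knockouts and 2.15, 2.5 and 2.14 FPKM under LPA. Control mice were above all others, and among the knockout mice the few-gene library of mouse 3 was the highest. These levels rested on 45 to 241 reads per library. The difference between MYO5B-knockout and control mice was -1.46 (SE 0.38, 95% CI -2.30 to -0.62) and missed the threshold (limma's adjusted p = 0.0767). Without the few-gene libraries it was -1.69 and passed (limma's adjusted p = 0.0185), and it also passed without MYO5B-knockout mouse 3 alone (-1.74, limma's adjusted p = 0.0225) or when those that held Xist were left out (-1.74, limma's adjusted p = 0.0355).

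Rab20, which has been placed on endosomes and phagosomes (ENSMUSG00000031504, chromosome 8, 11453392 to 11478638), measured 10.8, 8.85 and 10.9 FPKM in controls, 6.76, 7.14, 5.01 and 4.35 FPKM in vehicle-treated knockouts and 6.67, 7.87 and 8.10 FPKM under LPA. All control mice lay above all knockout mice. The difference of -0.82 (SE 0.29, 95% CI -1.47 to -0.17) did not pass (limma's adjusted p = 0.184). A gene on the opposite strand, E230013L22Rik, overlaps Rab20 and held 230 reads over the 10 libraries against 1808 for Rab20, and the counting was not stated to use strand.

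**Figure D3:**
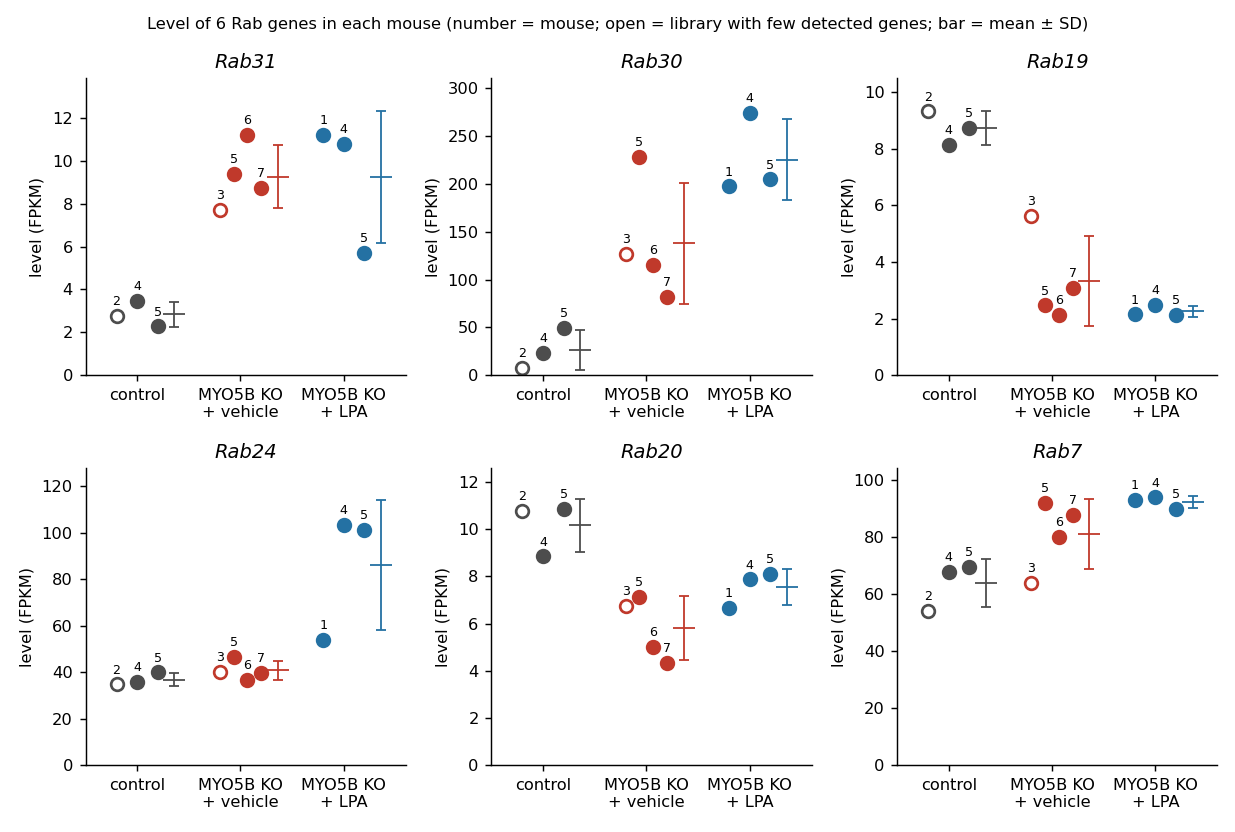
Level of Rab31, Rab30, Rab19, Rab24, Rab20 and Rab7 in each mouse, in FPKM, with the mouse number above each point, open points for the few-gene libraries and the group mean ± SD beside the points. Rab31 and Rab30 are higher and Rab19 and Rab20 lower in every vehicle-treated MYO5B-knockout mouse than in every control mouse, and 2 of the 3 LPA-treated mice hold Rab24 at over 100 FPKM.

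At an unadjusted p of 0.05, 4 of the 43 members passed (Rab31, Rab30, Rab19 and Rab20), against 17.6% of all genes. Of the 43 tested members, 5 did not overlap between MYO5B-knockout and control mice, a share of 11.6%, against 17.2% of all genes tested. Rab30 and Rab31 were the 2 higher ones (11% of all genes) and Rab19, Rab20 and Rab6b the 3 lower ones (6.2% of all genes). Rab6b, the neuronal form of the Golgi Rab6, was at the edge of detection with 1 to 49 reads per library. It measured 0.163, 0.363 and 0.148 FPKM in controls, 0.0182, 0.116, 0.0880 and 0.124 FPKM in vehicle-treated knockouts and 0.114, 0.566 and 0.435 FPKM under LPA.

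The next members by p in the same comparison did not pass the threshold. Rab35, of the fast recycling route to the plasma membrane, measured 7.44, 26.2 and 25.1 FPKM in controls, 20.98, 38.6, 35.3 and 33.1 FPKM in vehicle-treated knockouts and 40.9, 34.4 and 29.6 FPKM under LPA. Rab14, of the route between the trans-Golgi network and endosomes, measured 9.69, 26.0 and 25.0 FPKM in controls, 21.8, 31.6, 35.4 and 32.2 FPKM in vehicle-treated knockouts and 34.1, 27.1 and 23.3 FPKM under LPA. In both genes control mouse 2 was far below the other control mice, and MYO5B-knockout mouse 3 lay below control mice 4 and 5, so the groups overlapped. Rab35 differed by 0.87 (95% CI -0.10 to 1.84), by 0.47 without the few-gene libraries and by 0.28 without control mouse 2 alone. Rab14 differed by 0.69 (95% CI -0.14 to 1.51), and the same omissions gave 0.37 and 0.22.

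Rab12, which routes receptors to lysosomes, had no read in control mouse 2 and measured 1.48 and 1.19 FPKM in controls 4 and 5. It measured 0.977, 3.61, 2.00 and 1.47 FPKM in vehicle-treated knockouts and 2.64, 3.01 and 2.33 FPKM under LPA. Every LPA-treated mouse was above every control mouse, while knockout and control mice overlapped. The difference between MYO5B-knockout and control mice was 1.69 (95% CI -0.26 to 3.64, limma's adjusted p = 0.352) with all libraries, 0.68 without the few-gene libraries and 0.41 without control mouse 2.

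Rab27a and Rab3a act in regulated secretion, where Rab27a docks granules and Rab3a primes vesicles for release. Rab27a measured 1.54, 6.36 and 6.31 FPKM in controls, 5.33, 8.92, 7.48 and 8.13 FPKM in vehicle-treated knockouts and 8.73, 11.7 and 6.09 FPKM under LPA. Rab3a measured 4.02, 2.76 and 3.56 FPKM in controls, 2.82, 1.90, 1.89 and 2.31 FPKM in vehicle-treated knockouts and 2.5, 2.45 and 1.69 FPKM under LPA. MYO5B-knockout and control mice overlapped in both genes. Control mouse 2 held Rab27a far below the other control mice, and the difference of 0.87 (95% CI -0.24 to 1.97) was 0.36 without the few-gene libraries and 0.21 without control mouse 2. The difference of Rab3a was -0.61 with all libraries (95% CI -1.41 to 0.20) and -0.61 without the few-gene libraries. Rab3a overlaps Mpv17l2 on the other strand, which held 6913 reads against 668, so its values cannot be separated from that gene.

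Rab28, a Rab of cilia, measured 2.99, 13.1 and 10.3 FPKM in controls, 10.9, 15.7, 13.9 and 14.1 FPKM in vehicle-treated knockouts and 14.0, 13.4 and 11.97 FPKM under LPA. Its difference of 0.86 (95% CI -0.13 to 1.86) was 0.32 without the few-gene libraries and 0.22 without control mouse 2. Control mouse 2 was far below all other mice, and control mouse 4 lay above MYO5B-knockout mouse 3.

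By compartment, 1 of 12 tested members of the endoplasmic reticulum and Golgi group (Rab30) and 1 of 13 of the early endosome and recycling group (Rab31) were called between MYO5B-knockout and control mice. None was called among 6 members of late endosomes and lysosomes, 6 of regulated secretion, 2 of polarised exocytosis and junctions, and 3 of cilia, and Rab40c, the only tested member outside these groups, was not called. Of all genes tested, 2.01% were called, so groups of this size are too small for these counts to set compartments apart. The median log2 fold changes were 0.21 for the Golgi group, 0.36 for the early endosome group, 0.34 for the late endosome group and 0.50 for regulated secretion, against 0.29 for all genes tested. These medians include the few-gene libraries. Within the Golgi group the values ran from -1.46 for Rab19 to 2.62 for Rab30. Within the early endosome group they ran from -1.42 for Rab4b, which was -0.079 without the few-gene libraries, to 1.68 for Rab31.

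Rab7, which takes cargo from late endosomes to lysosomes, was the most abundant member of the late endosome group, at 54.0 to 69.4 FPKM in control mice (median 67.9), 64.0 to 91.8 FPKM in MYO5B-knockout mice and 89.9 to 93.8 FPKM in LPA-treated mice. LPA-treated mice were above control mice without overlap. Rab9, which returns receptors from late endosomes to the Golgi, ranged from 6.51 to 28.2 FPKM over all libraries. Rab32 and Rab29, of lysosome-related organelles, stayed between 1.72 and 8.72 FPKM.

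The members not given by library spanned these levels. In the Golgi group, Rab6a, of transport within and out of the Golgi, ranged from 5.10 to 60.6 FPKM, Rab18, of lipid droplets and the endoplasmic reticulum, from 10.1 to 51.4 FPKM and Rab43 from 3.33 to 27.7 FPKM. Rab33b, which acts in Golgi transport and autophagy, was steadier at 4.46 to 7.51 FPKM, while Rab2b and Rab33a reached at most 0.797 FPKM. In the early endosome group, Rab4a, of fast recycling, ranged from 25.9 to 60.2 FPKM, Rab21 from 17.9 to 41.7 FPKM, Rab5b from 4.38 to 22.7 FPKM, Rab15 from 0.287 to 12.3 FPKM and Rab4b from 0 to 2.44 FPKM. In most of these genes the lowest value came from a few-gene library. Rab5b held 10.5 to 22.7 FPKM in control, 4.38 to 14.7 FPKM in MYO5B-knockout and 6.09 to 12.9 FPKM in LPA-treated mice, with control mouse 2 the lowest control. It did not pass against control in either group (-0.75 and -0.81, limma's adjusted p = 0.468 in both). DESeq2 called Rab5b lower in both comparisons, where it called 1830 and 1489 of all genes.

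Among the secretory Rabs, Rab3d, of exocrine granules, ranged from 4.09 to 14.1 FPKM, Rab27b from 0.118 to 4.36 FPKM and Rab3c from 0.0320 to 0.512 FPKM. Rab37 had no read in either few-gene library, measured 2.29 and 1.95 FPKM in controls 4 and 5, and lay between 0.432 and 0.934 FPKM in the other 6 mice. Rab10, of polarised delivery to the plasma membrane, ranged from 9.31 to 37.1 FPKM. Rab23 and Rab34, of cilia, reached at most 0.857 FPKM, and Rab40c, part of a ubiquitin ligase, ranged from 4.24 to 7.49 FPKM. Rab10, Rab37, Rab15, Rab2b, Rab40c and Rab6a each overlap another gene on the opposite strand that held over 5% as many reads, so part of their values may belong to that gene. Tox4 held 10064 reads against 262 for Rab2b, and 0610011F06Rik held 4995 against 2886 for Rab40c. The values of Rab2b and Rab40c cannot be separated from those genes. None of the Rab11 and Rab8 genes left out of the family was called in any comparison.

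**Figure D4:**
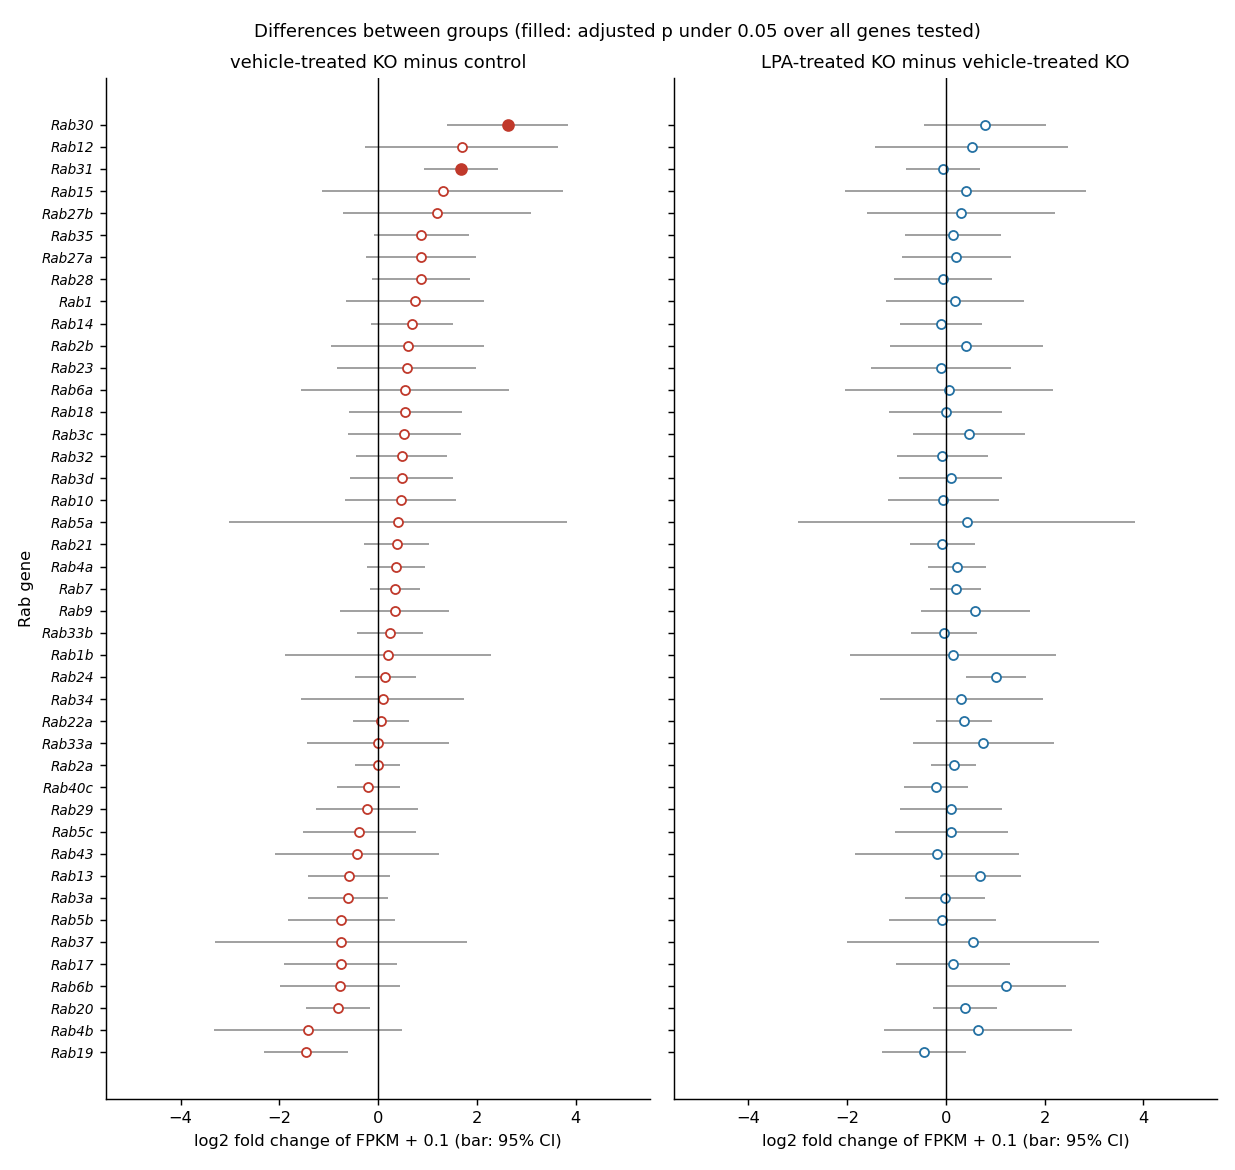
Log2 fold change of FPKM + 0.1 for the 43 tested Rab genes, with 95% confidence intervals, for vehicle-treated MYO5B-knockout minus control mice (left) and LPA-treated minus vehicle-treated MYO5B-knockout mice (right). Rab30 and Rab31 are the filled points on the left, no point is filled on the right, and the widest intervals belong to Rab5a, Rab37, Rab15 and Rab6a.

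Between LPA-treated and vehicle-treated MYO5B-knockout mice, limma called 0 of the 43 tested members, as it called 0% of all genes tested. edgeR on the reads recovered from FPKM called 0 genes as well, and DESeq2 called 7 genes, with no member among them. At an unadjusted p of 0.05, 2 of the 43 members passed (Rab24 and Rab6b), as did 2.92% of all genes. The groups did not overlap in 2 members, Rab24 and Rab22a, against 4.16% of all genes. Both were higher under LPA (3.56% of all genes), and no member was lower without overlap (0.604% of all genes). A value above 0 was found for 30 of the 43 members and 60.7% of all genes. The median log2 fold change of the members was 0.16 and that of all genes 0.11. Both turned below 0 without MYO5B-knockout mouse 3, at -0.04 for the members and -0.11 for all genes, and without the libraries that held Xist, at -0.05 and -0.18.

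Rab24, an atypical Rab with a role in clearing autophagosomes (ENSMUSG00000034789, chromosome 13, 55319223 to 55321980, minus strand), had the smallest p of the family in this comparison. It measured 34.9, 35.9 and 40.0 FPKM in controls, 40.3, 46.6, 36.9 and 39.9 FPKM in vehicle-treated knockouts and 54.0, 104 and 101 FPKM under LPA. LPA-treated mice 4 and 5 stood far above all other mice, and LPA-treated mouse 1, whose labels were in conflict and whose library held Xist, stood above the highest vehicle-treated mouse by less. Its reads numbered 718 to 3342 per library.

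The difference in Rab24 between LPA-treated and vehicle-treated knockout mice was 1.02 (SE 0.28, 95% CI 0.41 to 1.63, unadjusted p of limma's test 0.00384, adjusted p = 1.00). Without the few-gene libraries it was 1.01 (limma's adjusted p = 0.437). Without both libraries that held Xist it was 1.32 (limma's adjusted p = 0.196). With the few-gene libraries and the libraries that held Xist all left out, 3 libraries in total, the difference was 1.32 and passed (limma's adjusted p = 0.0391), and limma then called 197 genes.

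Rab22a, the early endosome paralog of Rab31, measured 8.31, 11.5 and 11.6 FPKM in controls, 9.10, 11.8, 11.6 and 10.9 FPKM in vehicle-treated knockouts and 14.1, 14.6 and 13.4 FPKM under LPA. LPA-treated mice lay above all others by a narrow margin, and the difference from vehicle-treated mice was 0.37 (95% CI -0.20 to 0.94). Rab13, which acts at tight junctions, measured 2.37, 3.58 and 2.91 FPKM in controls, 1.74, 2.5, 1.42 and 2.07 FPKM in vehicle-treated knockouts and 2.48, 3.80 and 3.29 FPKM under LPA. LPA-treated mouse 1 overlapped with knockout mouse 5, and the difference was 0.70 (95% CI -0.12 to 1.53).

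The 5 members that did not overlap between MYO5B-knockout and control mice gave these differences under LPA. Rab31 differed by -0.05 (95% CI -0.80 to 0.70), Rab30 by 0.79 (95% CI -0.43 to 2.02), Rab19 by -0.44 (95% CI -1.29 to 0.40) and Rab20 by 0.39 (95% CI -0.26 to 1.05) between LPA-treated and vehicle-treated knockout mice. Rab31 was at -0.13 and Rab19 at -0.16 without the few-gene libraries. The intervals of these 4 included 0, and none is narrow enough to show that LPA left the gene as it was. Rab31 turned above 0 without LPA-treated mouse 5 (0.26) or MYO5B-knockout mouse 6 (0.05). Rab6b, on its few reads, differed by 1.23 (95% CI 0.01 to 2.44, unadjusted p of limma's test 0.0479, adjusted p = 1.00), an interval above 0 for a gene whose difference between MYO5B-knockout and control mice was -0.78. MYO5B-knockout mouse 3, a few-gene library, held 1 read of Rab6b, and the difference ran from 0.90 to 1.72 without single mice. With that mouse left out, 1 member instead of 2 passed an unadjusted p of 0.05 under LPA.

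Between LPA-treated MYO5B-knockout and control mice, 3 of the 43 tested members passed, against 2.32% of all genes. The control mice are those of the first comparison. Rab30 rose by 3.41 (SE 0.59, 95% CI 2.10 to 4.72, limma's adjusted p = 0.0183) and Rab31 by 1.63 (SE 0.36, 95% CI 0.82 to 2.43, limma's adjusted p = 0.0480). Rab19 fell by 1.90 on the log2 scale (SE 0.41, limma's adjusted p = 0.0436). Higher calls made up 1.54% and lower calls 0.776% of all genes tested. A value above 0 was found for 32 of the 43 members and 69.5% of all genes.

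Without the few-gene libraries all 3 passed, at 2.70 for Rab30 (limma's adjusted p = 0.0196), 1.62 for Rab31 (limma's adjusted p = 0.0325) and -1.85 for Rab19 (limma's adjusted p = 0.00858). Without the libraries that held Xist, Rab19 passed at -1.87 (limma's adjusted p = 0.0363), whereas Rab30 at 3.50 (limma's adjusted p = 0.0654) and Rab31 at 1.46 (limma's adjusted p = 0.0869) did not. Under median-ratio scaling Rab30 passed at 3.04 (limma's adjusted p = 0.0143), while Rab31 at 1.26 (limma's adjusted p = 0.0891) and Rab19 at -2.27 (limma's adjusted p = 0.0502) did not. Quantile normalization, edgeR and the fit with no filter on low values likewise called Rab30 and neither of the others, and a fit of the 2 groups alone called Rab19 and neither of the others.

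Leaving out single libraries ended most of these calls as well. Rab19 and Rab31 both kept theirs only without MYO5B-knockout mouse 3. Rab19 otherwise gave adjusted p-values between 0.0587 and 0.153 in limma, and Rab31 between 0.0665 and 0.175, without control mouse 2, 4 or 5, MYO5B-knockout mouse 5, 6 or 7, or LPA-treated mouse 1, 4 or 5. Rab30 lost its call without LPA-treated mouse 1, 4 or 5 or control mouse 4 (limma's adjusted p between 0.0612 and 0.0786). The differences stayed within 2.70 to 4.03 for Rab30, -1.97 to -1.85 for Rab19 and 1.46 to 1.94 for Rab31.

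LPA-treated and control mice did not overlap in 13 of the 43 tested members, a share of 30.2%, against 26.9% of all genes tested. Rab30, Rab7, Rab24, Rab4a, Rab35, Rab9, Rab22a, Rab31 and Rab12 were the 9 higher ones (20.5% of all genes), and Rab20, Rab40c, Rab19 and Rab3a the 4 lower ones (6.38% of all genes). Of the lower ones, Rab20, Rab40c and Rab3a overlap genes on the opposite strand, as given above. Rab24 differed by 1.17 (95% CI 0.51 to 1.82) and missed the threshold (limma's adjusted p = 0.0746). It passed without LPA-treated mouse 1 (1.47, limma's adjusted p = 0.0417) and without both libraries that held Xist (1.47, limma's adjusted p = 0.0257). Rab12 differed by 2.22 (95% CI 0.13 to 4.31, limma's adjusted p = 0.274), a value that was 0.94 without the few-gene libraries.

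Over the 10 libraries the members whose levels were most like those of Rab31 were Rab30, Rab7 and Rab4a, with Pearson correlations of log2(FPKM + 0.1) of 0.79, 0.73 and 0.68. The points share the groups and the few-gene libraries, so these are descriptions.

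The proteins that load, switch and anchor Rab GTPases were examined as lists. Of 34 GTPase-activating proteins tested, 1 was called between MYO5B-knockout and control mice. Tbc1d9, a TBC-domain protein, measured 1.04, 1.19 and 1.16 FPKM in controls, 12.3, 10.9, 5.61 and 3.52 FPKM in vehicle-treated knockouts and 11.8, 9.57 and 10.5 FPKM under LPA. Every tamoxifen-treated mouse was well above the control mice, whose values were close together. Tbc1d9 rose by 2.57 (SE 0.44, limma's adjusted p = 0.0213) in MYO5B-knockout and by 3.12 (SE 0.47, limma's adjusted p = 0.01003) in LPA-treated mice over control mice, and was the only gene of the 4 lists called in either comparison. Without the few-gene libraries these were 2.26 (limma's adjusted p = 0.0349) and 3.07 (limma's adjusted p = 0.00959). The first call was lost in a fit of the 2 groups alone and without MYO5B-knockout mouse 5 or 6 or control mouse 4 or 5 (limma's adjusted p between 0.0512 and 0.0997), and the second without LPA-treated mouse 5 (limma's adjusted p = 0.0590).

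None of the 31 tested exchange factors, 33 effectors and 8 genes of prenylation and recycling passed between MYO5B-knockout and control mice, and none of any list passed between LPA-treated and vehicle-treated mice. For vehicle-treated knockouts against controls, the list medians on the log2 scale were 0.26 for exchange factors, 0.28 for GTPase-activating proteins, 0.39 for effectors and 0.40 for prenylation and recycling, against 0.29 for all genes tested. The few-gene libraries are included in these medians. Among exchange factors the smallest p values belonged to Rin1, an exchange factor of Rab5, at 2.30 (limma's adjusted p = 0.208), and to Gapvd1, another one, at 0.68 (limma's adjusted p = 0.373). Among effectors they belonged to Rabepk, a Rab9 effector, at 0.85 (limma's adjusted p = 0.20), and to Rilp, the Rab7 effector that recruits dynein, at -0.83 (limma's adjusted p = 0.250). Under the alternatives Rilp passed in 4 fits, Rin1 in 2, Rabepk in 1 and Gapvd1 in 0. Without single mice, Rin1 ran from 1.72 to 2.97 and Rilp from -1.05 to -0.62.

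The Rab escort protein gene Chml had no read in control mice 2 and 5, stood at 0.0348 FPKM in control mouse 4 and ranged from 0.166 to 2.12 FPKM in MYO5B-knockout mice, with limma's adjusted p at 0.119. Chml passed in 2 of the alternatives. Rabggta, which encodes a subunit of the prenylating enzyme, measured 7.00, 11.5 and 10.9 FPKM in controls, 14.8, 17.9, 13.7 and 13.9 FPKM in vehicle-treated knockouts and 18.0, 21.8 and 19.2 FPKM under LPA. All 3 groups were separate in this gene, with LPA-treated mice highest by a narrow margin. Its difference from control was 0.64 in MYO5B-knockout mice (limma's adjusted p = 0.256) and 1.02 in LPA-treated mice (limma's adjusted p = 0.106). With the few-gene libraries left out these were 0.42 (limma's adjusted p = 0.209) and 0.80 (limma's adjusted p = 0.0443), the latter past the threshold.

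Marker genes of several cell types differed along with these genes. Epithelial markers were abundant in every library, with 9 of 9 tested and summed levels of 5582 to 7575 FPKM in control, 8248 to 10674 FPKM in MYO5B-knockout and 9352 to 11979 FPKM in LPA-treated mice. Krt8, Krt19 and Krt20, the most abundant of them, weigh most in these sums. In vehicle-treated knockouts against controls, 6 epithelial markers were higher and 3 lower (Epcam, Vil1 and Cdx2). Their median was 0.14, and 0 were called. Leukocyte markers had lower levels in the vehicle-treated knockouts in 15 of 15 genes, with 3 called (Cd52, Cd79a and Gzma), and their summed level was 1488 to 2420 FPKM in control, 54.3 to 962 FPKM in MYO5B-knockout and 174 to 253 FPKM in LPA-treated mice. Proliferation markers were higher in the vehicle-treated knockouts in 15 of 15, with 1 called (Rrm2), at 113 to 160, 293 to 484 and 198 to 398 FPKM in the 3 groups. Of all genes tested between MYO5B-knockout and control mice, 63.4% were above 0, 1.13% were called as higher and 0.884% as lower. No marker was at 0 reads in all libraries.

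Enterocyte markers summed to 40888 to 53604 FPKM in control, 21076 to 35959 FPKM in MYO5B-knockout and 32384 to 60680 FPKM in LPA-treated mice, with a median of -0.995 on the log2 scale for vehicle-treated knockouts against controls and 0 of 15 called. Fabp1, Rbp2 and Apoa1, the most abundant of them, weigh most in these sums. Between LPA-treated and control mice, 10 of the 15 were lower and 5 higher. The median was -0.980 there, and 2 were called as lower (Slc5a1 and Mep1a). Also called in that comparison were 2 epithelial markers (Krt18 and Krt19), 1 goblet cell and 1 proliferation marker as higher. Leukocyte markers gave 2 calls as lower. Of all genes tested, 1.54% were called as higher and 0.776% as lower there. Tuft cell markers, 8 of 10 tested, summed to 12.7 to 33.9, 3.75 to 12.8 and 9.17 to 12.4 FPKM, and 0 were called. Between MYO5B-knockout and control mice, 1 of 13 enteroendocrine markers was called as lower (Sst), and among 10 goblet cell and 10 tested stroma markers 0 were called. Between LPA-treated and vehicle-treated knockout mice, 0 markers of any list were called. Goblet cell markers were higher under LPA in 10 of 10 (median 0.60), enteroendocrine in 12 of 13 (0.63) and stroma in 9 of 10 (1.19). Of all genes tested, 60.7% were above 0. Proliferation markers were lower in 15 of 15 (median -0.42), and leukocyte markers were higher in 8 and lower in 7. The part of these cell types in the differences of Rab genes was not tested. In bulk RNA, fewer cells of a type and less RNA per cell cannot be told apart.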

How the data were processed

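Poly(A) RNA of jejunal epithelial cells from 10 mice was sequenced. Per the submitters' processing notes, STAR 2.5, TopHat, HTSeq 0.6.1 and DESeq2 were used with GRCm38/mm10, in roles not given in the sources used here. The authors deposited FPKM per gene for each library, and a second set of tables with a read count for a few genes. The deposited fold changes, p-values and pathway tables were not used. FPKM multiplied by gene length were whole multiples of a single step in each library (100% of low values within 0.01), which returned the reads per gene, and 63 of 63 deposited counts equalled them. Of the 53 members, 35 had coordinates identical to GENCODE M21.

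Genes averaging 0.1 FPKM or more were fitted in limma 3.58.1 (R 4.3.3) as log2(FPKM + 0.1), with the 3 groups in a single model, a trended variance, two-sided tests and Benjamini-Hochberg adjustment over 15729 genes. Fold changes on this scale understate those of low genes. No scaling beyond FPKM was applied. edgeR 4.0.16 and DESeq2 1.42.0 on the recovered reads, other scalings, filters, pseudocounts, a replicate block and left-out libraries were alternatives. Only the limma fit of MYO5B-knockout against control mice was tested on simulated reads. The simulation held no few-gene libraries, and the alternatives were not tested in this way. Nothing states that mice of a group came from separate litters, the labels name no batch, and p-values measure the spread between these mice.

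The members and lists were chosen with earlier results of these data known. Members named by library were those past the threshold in any comparison, the 10 with the smallest p between MYO5B-knockout and control mice, the 5 with the smallest in each other comparison and the 5 most abundant. In each list of Rab machinery, genes past the threshold were named, and otherwise the 2 with the smallest p. Rab7, Rab5a, Rab17 and the members given by range were added to show the spread. A newer symbol matched 2 list genes. The alternatives that added a covariate for the few-gene libraries, or left out 3 libraries, were chosen after seeing the data.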

Additional observations from a re-analysis of the deposited data

Results flagged for a closer look

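In the groups of 4 mice, a value was singled out when its gap to the nearest other mouse, divided by the range of the group, exceeded Dixon's critical value for 4 samples at the 95% level. Of 18 named members tested in this way in MYO5B-knockout mice, 2 had such a value, and chance alone gives about 5% of groups. Rab1 in MYO5B-knockout mouse 3 was the first, at 76.1 FPKM against 205 to 211 FPKM in the other 3 mice, with a gap of 0.972 of the range. Rab1b in the same mouse was the second, at 12.3 FPKM against 98.4 to 126 FPKM, with a gap of 0.893 of the range. The library of this mouse is one of the 2 with few detected genes, and mitochondrial genes took 18.0% of its reads. The part of the library in these values was not tested.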

How the results depend on the processing

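Among the differences printed for named genes, none that passed the test changed direction under any alternative. Of those that did not pass, 4 changed direction between MYO5B-knockout and control mice. Rab1b turned to -0.087 with DESeq2, -0.095 with median-ratio scaling, -0.053 with edgeR and -0.051 with the covariate for the few-gene libraries, and ran from -0.73 to 0.98 without single mice. Rab2a, near 0, turned to 0.063 with quantile normalization, 0.00061 without the libraries that held Xist, and ran from -0.052 to 0.0104 without single mice. Rab5c turned to 0.017 without the libraries that held Xist and ran from -0.94 to 0.017 without single mice, and Rab1 ran from -0.13 to 1.19. Between LPA-treated and vehicle-treated mice, Rab31 ran from -0.22 to 0.26 without single mice. Between MYO5B-knockout and control mice, the 2 members called became 4 with DESeq2, 5 with the covariate for the few-gene libraries, 1 with no filter on low values, 0 with only the 2 groups compared, and 0 to 2 when single mice were left out. Under DESeq2 the 4 were Rab30, Rab31, Rab19 and Rab5b. Between LPA-treated and vehicle-treated mice the count was 0 under every alternative but 1, Rab24, without the 3 libraries with few detected genes or against the labelled sex. Between LPA-treated MYO5B-knockout and control mice, the 3 members called became 1 with edgeR, median-ratio scaling, quantile normalization or no filter on low values (Rab30 each time) and with only the 2 groups compared (Rab19), 7 with the covariate, 5 without the 3 libraries, and 0 to 3 without single mice. The paired analysis with the replicate block on mice 4 and 5, which shares only mouse numbers, gave 0 calls on 4 libraries, with 2 groups of 2 mice. Over 15729 genes, the difference between mice 4 and 5 in control mice and that in LPA-treated mice had a correlation of 0.0254. No paired analysis was possible because the groups share only mouse 5 in the other comparisons. The median log2 fold change of the members between MYO5B-knockout and control mice ran from -0.10 to 0.48 without single mice, and turned below 0 without control mouse 2, where that of all genes was -0.0038. The cause of these changes was not tested, beyond the smaller number of libraries in the fits that left some out. Members under 1 FPKM rested on few reads per library.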
